A study of Rattus norvegicus with 14 samples.

Results

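Circadian clock genes were followed in the livers of 14 female lean Zucker rats, about 15 weeks old and of genotype fa/+, in which 1 of the 2 copies of the leptin receptor gene carries the fa mutation. For 64 days 7 rats ate a standard diet with a rosemary extract (0.05% of the diet by weight, 40% of it carnosic acid, a phenolic diterpene of rosemary), and 7 control rats ate the standard diet alone. Each rat gave 1 array of total liver RNA, and the values are log2 RMA values, on which a difference of 1 is a doubling. The 10 genes are Per1, Per2, Per3, Cry1, Nr1d1, Nr1d2, Dbp, Tef, Npas2 and Clock, taken by name out of 14506 genes that had a probe with exactly 1 gene symbol. All 10 were measured, each by 1 probe, with no filter on dim signals. The question was whether the diet groups, or single rats, differed in the state of the liver clock. No label states the hour at which the rats were killed.

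The liver clock is a transcriptional loop. CLOCK, or its paralogue NPAS2, pairs with BMAL1 and activates the Per and Cry genes, whose proteins later block that pair, and also activates Nr1d1 and Nr1d2, which encode the nuclear receptors REV-ERB alpha and beta that repress Bmal1, Npas2, Clock and Cry1. The same pair drives Dbp and Tef, PAR bZIP transcription factors that pass the rhythm on to metabolic genes. In livers of nocturnal rodents Nr1d1 peaks in the light phase, Nr1d2, Per3, Dbp, Tef and Per1 follow towards its end, Per2 peaks later, Cry1 peaks in the dark phase, and Bmal1, Npas2 and Clock peak around its end.

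The tissue carried liver markers: the 10 hepatocyte markers (albumin and transthyretin among them) had means from 11.19 to 13.74, and the mean of this list lay between 12.79 and 12.93 in extract arrays and between 12.81 and 12.97 in control arrays. Across all genes 2 arrays stood apart. Control rat 1 was the highest or lowest of its 7 in 47.3% of genes and extract rat 4 in 44.8%, against 15.8% to 35.3% for the other 12 rats. The mean absolute distance from the group mean was 0.18 for extract rat 4 and 0.20 for control rat 1, and 0.09 to 0.15 for the others.

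Most of these 10 clock genes differed far more between rats of the same diet than most liver genes did. The SD between rats within groups had a median of 0.38 over the 10 genes, against 0.16 over all genes, and 7 of the 10 lay above the 90th percentile of genes. Nr1d1 had an SD of 1.16, the third largest of the 14506 genes. Nr1d2 followed with 0.59, Per2 with 0.47, Cry1 with 0.41, Dbp with 0.40 and Per3 with 0.36. Tef (0.19), Clock (0.21) and Npas2 (0.24) stayed at the 63.0, 71.5 and 82.8 percentiles. Of 9 other clock genes measured, described below, Bhlhe40 alone lay above the 90th percentile, so such a spread was not general to clock genes.

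**Figure D1:**
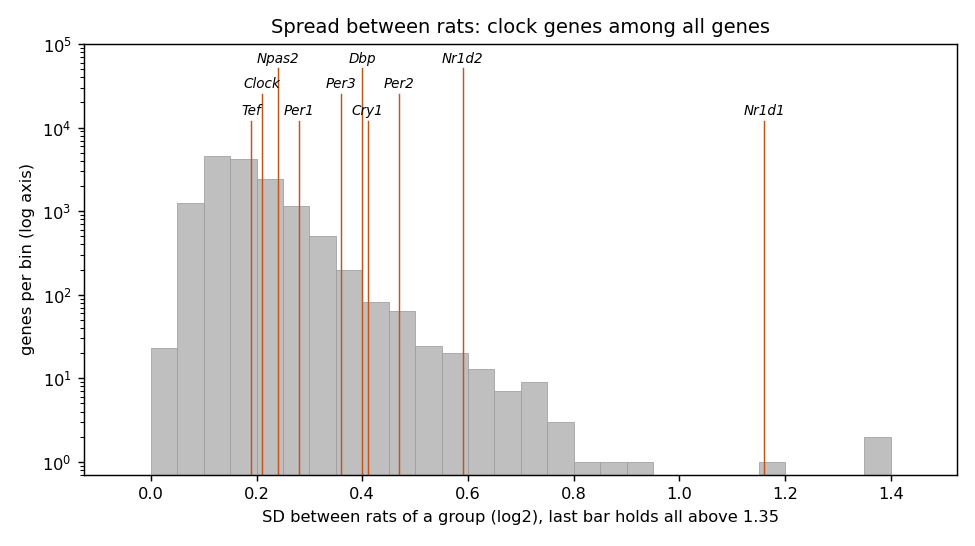
Number of genes (log axis) by SD between rats within the diet groups, in log2 units, with the 10 clock genes marked by lines. Nr1d1 at 1.16 lies far out in the right tail, and Tef, Clock and Npas2 lie near the bulk of genes.

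Between the diets limma called 0 of the 10 genes at a Benjamini-Hochberg adjusted p of 0.05, where 3.15% of all genes were called. At an unadjusted p under 0.05 there were 2 of 10 (Per2 and Npas2), against 14.8% of all genes. In 0 of 10 genes were the groups free of overlap, against 1.54% of all genes. Of the log2 differences, extract minus control, 5 were positive and 5 negative, with a median of -0.04, and the median over all genes was -0.001. Their median size was 0.15, against 0.08 over all genes.

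**Figure D2:**
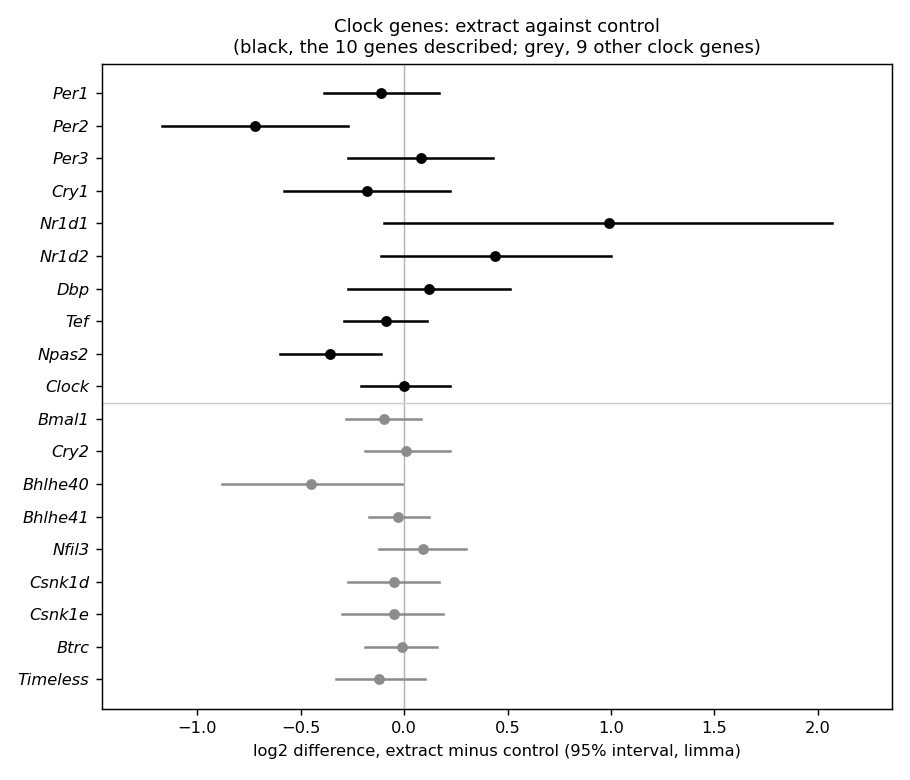
Log2 difference, extract minus control, with its 95% interval from limma, for the 10 clock genes (black) and 9 other clock genes (grey). The intervals of Per2, Npas2 and Bhlhe40 lie below 0 before adjustment for the number of genes, and Nr1d1 has the widest interval, -0.10 to 2.07.

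Per2 encodes a period protein of the repressing complex and had the smallest p of the 10. In extract rats it ranged from 5.50 in rat 5 over a median of 5.76 to 6.35 in rat 7, and in control rats from 5.78 in rat 1 over a median of 6.61 to 7.53 in rat 2. All 7 extract rats lay below the control median, and 4 of them lay below every control rat. The mean was 5.89 ± 0.34 in extract rats and 6.61 ± 0.58 in control rats (SD, n = 7 each), a log2 difference of -0.72 ± 0.21 (SE; 95% interval -1.17 to -0.27; limma adjusted p = 0.0822), which did not pass. Control rat 1 was the control nearest to the extract rats. Without it the difference was -0.86 (adjusted p = 0.0132), and without both it and extract rat 4 it was -0.80 (adjusted p = 0.0278). With array weights, which give those 2 arrays 0.41 and 0.463 of an average array's weight, it was -0.86 (adjusted p = 0.014). Without control rat 2, the highest control, the difference was -0.56 (limma adjusted p = 0.138). Leaving out any single rat other than control rat 1 gave a limma adjusted p from 0.0612 to 0.162, and Per2 did not pass.

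Per2 is shown with the 250 bases upstream of its annotated start because it had the largest shift between the diets relative to its error. The sequence is from RefSeq (GRCr8, chr9:99496994-99497243, minus strand), and capitals mark a D-box, the element bound by DBP, TEF and the repressor NFIL3, found by its letters 192 bases upstream of the start.
Per2: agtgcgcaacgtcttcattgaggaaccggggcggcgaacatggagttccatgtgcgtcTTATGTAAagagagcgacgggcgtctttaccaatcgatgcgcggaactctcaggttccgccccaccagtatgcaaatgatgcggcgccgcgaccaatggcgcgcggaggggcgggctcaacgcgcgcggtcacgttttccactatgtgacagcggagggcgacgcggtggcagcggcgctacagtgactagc

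Npas2, the partner of BMAL1 that can replace CLOCK, was the other gene with a low unadjusted p. It ranged in extract rats from 8.20 in rats 2 and 3 over a median of 8.25 to 8.64 in rat 1, and in control rats from 8.11 in rat 1 over a median of 8.77 to 8.92 in rat 6. All 7 extract rats lay below the control median, and 5 of 7 control rats lay above every extract rat, while control rat 1 lay below them all. The means were 8.33 ± 0.18 in extract rats and 8.69 ± 0.29 in control rats (SD, n = 7 each), a log2 difference of -0.36 ± 0.12 (SE; 95% interval -0.60 to -0.11; adjusted p = 0.118). Without control rat 1 it was -0.45 (adjusted p = 0.00587), without that rat and extract rat 4 it was -0.44 (adjusted p = 0.0118), and with array weights -0.41 (adjusted p = 0.02). Leaving out any single rat other than control rat 1 gave a limma adjusted p from 0.0788 to 0.228, and Npas2 did not pass. The 2 genes called lower without control rat 1, Per2 and Npas2, compare with 2.01% of all genes called lower there. That share was 1.57% without both rats and 1.81% with array weights, where the same pair of genes passed. These shares count genes called lower only, a direction that both genes had already shown. They cannot be set against the 3.15% above, which counts both directions.

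Clock, whose product is the main partner of BMAL1, had the same mean in both groups, 8.88 ± 0.17 in extract rats and 8.88 ± 0.23 in control rats (SD, n = 7 each). The 95% interval of the log2 difference was -0.21 to 0.22 (adjusted p = 0.997). It ranged from 8.54 in rat 4 over a median of 8.91 to 9.06 in rat 7 in extract rats, and from 8.38 in rat 1 over a median of 8.95 to 9.09 in rat 2 in control rats. The 2 low values are thus those of the 2 arrays that stood apart over all genes, and the other 12 rats lay between 8.80 and 9.09.

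Nr1d1, the gene of REV-ERB alpha, spanned 3.94 log2 units over the 14 rats, a 15.3-fold range. In extract rats the lowest value was 6.64 in rat 4, the median 9.02 and the highest 9.67 in rat 7. In control rats the lowest was 5.73 in rat 2, the median 8.09 and the highest 9.04 in rat 6. The rats fell into 2 sets, with extract rat 4 and control rats 1, 2 and 3 at 6.68 or less, and the other 10 rats at 7.78 or more. Both diets were found in both sets. The means were 8.60 ± 1.05 in extract rats and 7.62 ± 1.27 in control rats (SD, n = 7 each), a log2 difference of 0.99 ± 0.52 (SE; 95% interval -0.10 to 2.07; adjusted p = 0.397). A difference of this size, 1.98-fold, lay within the spread between rats. Leaving out control rat 2 gave 0.67 (adjusted p = 0.596) and leaving out extract rat 4 gave 1.31 (adjusted p = 0.174), and the call did not change.

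Nr1d2, the gene of REV-ERB beta, followed a similar order of rats in a narrower range. It ran in extract rats from 7.48 in rat 4 over a median of 8.38 to 8.88 in rat 7, and in control rats from 6.77 in rat 2 over a median of 8.12 to 8.72 in rat 6. The log2 difference was 0.44 ± 0.26 (SE; 95% interval -0.11 to 1.00; adjusted p = 0.475). It was 0.26 without control rat 2 and 0.67 with array weights, and passed in neither (adjusted p = 0.7 and 0.159).

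Both Rev-erb genes are targets of the CLOCK and BMAL1 pair, which binds the E-box letters CACGTG. Nr1d1 is shown because it varied most between rats and holds such an E-box. The 250 bases lie upstream of 1 of its 2 annotated starts in RefSeq (GRCr8, chr10:84229455-84229704, minus strand), with the E-box in capitals 191 bases upstream of that start. Bmal1 is shown beside it as a gene that REV-ERB proteins repress (GRCr8, chr1:176766078-176766327, plus strand), with the letters TAGGTCA of a ROR and REV-ERB element in capitals, 16 bases upstream of its start.
Nr1d1: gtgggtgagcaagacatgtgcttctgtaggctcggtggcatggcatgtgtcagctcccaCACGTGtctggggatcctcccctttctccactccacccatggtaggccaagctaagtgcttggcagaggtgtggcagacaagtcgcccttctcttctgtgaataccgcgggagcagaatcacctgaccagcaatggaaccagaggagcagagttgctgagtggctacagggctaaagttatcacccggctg
Bmal1: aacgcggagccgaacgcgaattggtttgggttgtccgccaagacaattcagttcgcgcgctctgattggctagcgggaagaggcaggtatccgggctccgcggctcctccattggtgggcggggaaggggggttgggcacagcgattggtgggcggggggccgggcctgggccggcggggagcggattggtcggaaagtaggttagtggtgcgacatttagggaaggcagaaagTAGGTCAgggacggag

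Windows of 300 bases (250 before to 50 after a start, RefSeq GRCr8) were searched on both strands for CACGTG (E-box), TTANGTAA (D-box), TAGGTCA and TGACGTCA (cyclic AMP response element). No window of the 10 genes held more than 1 of these motifs. Windows were held for 9 of the 10 genes, 11 windows in all. The counts that follow are of genes, and the shares beside them are of windows. The E-box was found in 2 of the 9 genes (Nr1d1, at 1 of its 2 starts, and Tef, 198 bases upstream), against 6.42% of 33469 windows of the same length. The D-box was found in 1 gene (Per2), against 2.24% of windows. The other motifs were found in 0 of the 9 genes, against 2.63% of windows for TAGGTCA and 1.83% for TGACGTCA. A match of letters is a description of the sequence only.

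Cry1, a cryptochrome that represses the CLOCK and BMAL1 pair, tended to be higher in rats with less Nr1d1, although control rat 1, low in Nr1d1, lay at the control median of Cry1. It ranged in extract rats from 6.21 in rat 7 over a median of 6.56 to 7.44 in rat 2, and in control rats from 6.40 in rat 6 over a median of 6.79 to 7.71 in rat 2. The groups overlapped over most of their range, with a log2 difference of -0.18 ± 0.19 (SE; 95% interval -0.58 to 0.22; adjusted p = 0.739). It was -0.30 without extract rat 2, -0.10 without extract rat 7 and -0.04 without control rat 2.

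Per3, a period gene, ranged in extract rats from 4.94 in rat 4 over a median of 5.63 to 6.33 in rat 7, and in control rats from 5.18 in rats 1 and 3 over a median of 5.50 to 5.94 in rat 6. Per1, the period gene that also responds directly to glucocorticoids, ranged from 5.75 to 6.58 with a median of 6.24 in extract rats and from 5.80 to 6.67 with a median of 6.22 in control rats. Neither separated the diets: the log2 difference was 0.08 ± 0.17 (SE; 95% interval -0.27 to 0.43; adjusted p = 0.895) for Per3 and -0.11 ± 0.13 (SE; 95% interval -0.39 to 0.17; adjusted p = 0.794) for Per1. The sign for Per3 turned to -0.04 without extract rat 7.

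Dbp, an output factor with a strong rhythm in liver, ranged in extract rats from 7.21 in rat 1 over a median of 7.52 to 8.60 in rat 7, and in control rats from 7.15 in rat 4 over a median of 7.56 to 7.99 in rat 6. Tef, its relative, ranged from 6.56 to 7.10 with a median of 6.78 in extract rats and from 6.65 to 7.11 with a median of 6.89 in control rats. Extract rat 7 was the highest extract rat in both. The log2 differences were 0.12 ± 0.18 (SE; 95% interval -0.27 to 0.51; adjusted p = 0.849) for Dbp and -0.09 ± 0.10 (SE; 95% interval -0.29 to 0.11; adjusted p = 0.753) for Tef. That of Dbp turned to -0.04 without extract rat 7.

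**Figure D3:**
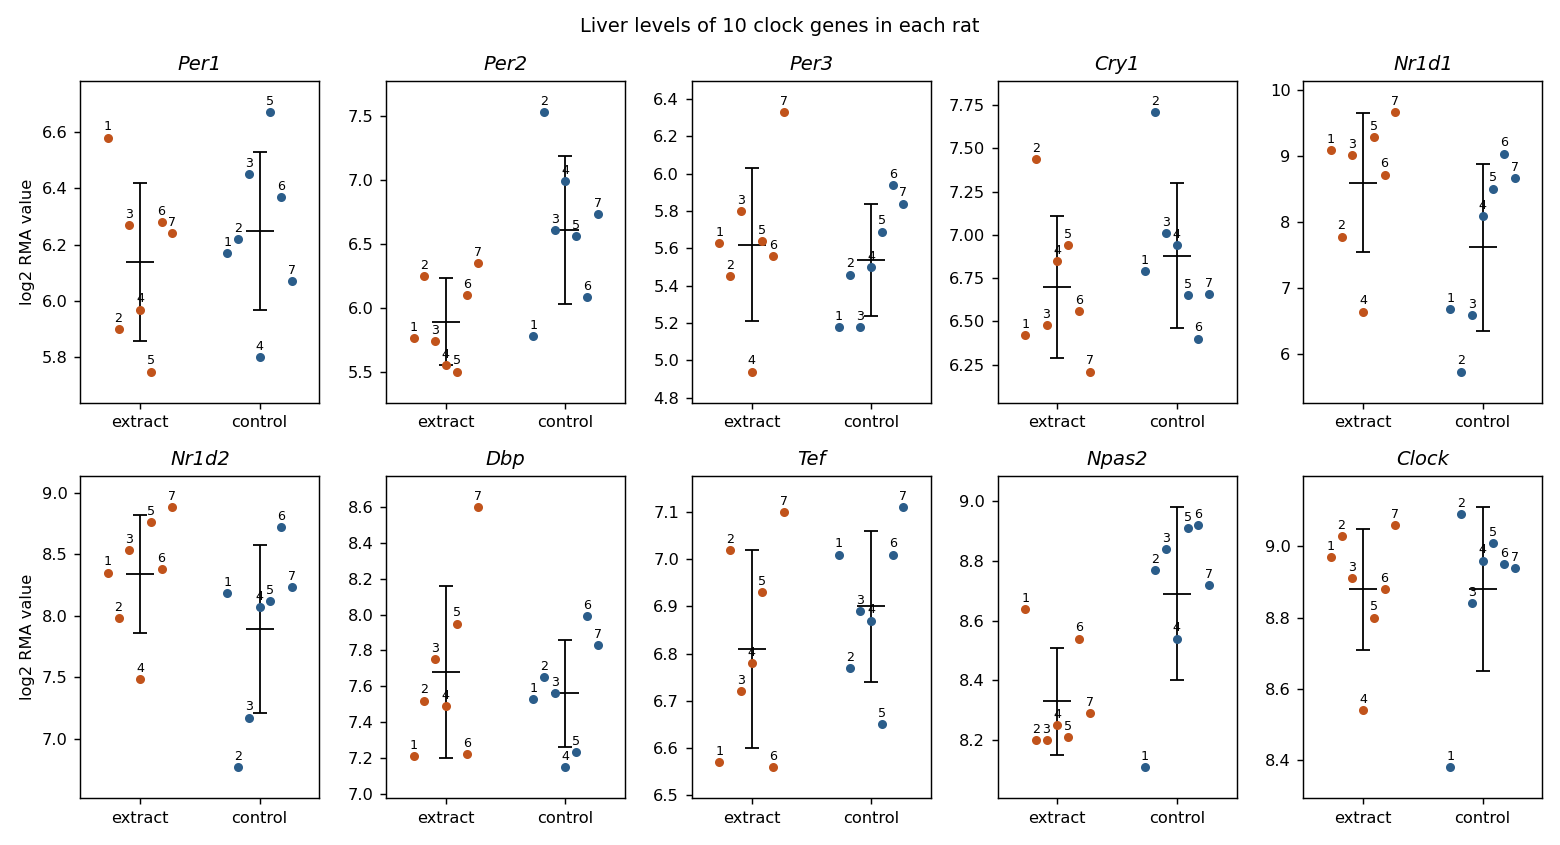
Log2 RMA value of each of the 10 clock genes in every rat, extract rats left and control rats right; numbers are rat numbers, and bars give the mean ± SD of 7 rats. Nr1d1 reaches from 5.73 to 9.67, and in Npas2 control rat 1 (8.11) lies apart from the other control rats.

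The rats of a group differed in several clock genes together. After each group was centred on its own mean, 7 of the 45 pairs of genes were correlated over the 14 rats at an adjusted permutation p under 0.05 (100000 permutations of rats within groups, two-sided, adjusted over the 45 pairs), 5 positively and 2 negatively. Nr1d1 and Nr1d2 had Pearson's r = 0.90 (permutation p = 3e-05, adjusted 0.00135) and Spearman's rho = 0.85 (permutation p = 0.00031). Nr1d1 and Per3 had r = 0.83 (permutation p = 0.00031, adjusted 0.00697) and rho = 0.93 (permutation p = 7e-05). Rats with more of the Rev-erb genes thus tended to have more Per3. The share of pairs of other genes that would pass the same test is not given here.

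Cry1 ran the other way. Its r with Nr1d1 was -0.73 (permutation p = 0.00406, adjusted 0.0304; rho = -0.76, permutation p = 0.00249) and with Nr1d2 -0.75 (permutation p = 0.00401, adjusted 0.0304; rho = -0.64, permutation p = 0.0202). Per3 and Nr1d2 had r = 0.70 (permutation p = 0.00508, adjusted 0.0327; rho = 0.78, permutation p = 0.00223). Dbp and Tef, the PAR bZIP genes, had r = 0.75 (permutation p = 0.00377, adjusted 0.0304; rho = 0.67, permutation p = 0.019). The remaining pair, Per2 and Clock, had r = 0.74 (permutation p = 0.00349, adjusted 0.0304; rho = 0.72, permutation p = 0.00711). Both genes also followed the largest component shared by other genes, described below (r = 0.68 for Per2 and 0.95 for Clock). Without control rat 1 and extract rat 4 the adjusted permutation p was 0.0517 for Per3 and Nr1d1 (r = 0.73), 0.0526 for Dbp and Tef (r = 0.77) and 0.118 for Per2 and Clock (r = 0.66), so these pairs no longer passed, and the other 4 did (0.0009 to 0.0365). By rank in all rats, Cry1 with Nr1d2 and Dbp with Tef did not pass (adjusted permutation p of rho = 0.101 for both). Per1 with Npas2 (rho = 0.72) and Per3 with Cry1 (rho = -0.74) passed by rank (adjusted permutation p = 0.0457 for both). Their r did not pass (adjusted permutation p = 0.137 and 0.215).

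Each of these relations had the same sign in both diets. Nr1d1 and Nr1d2 had r = 0.98 in extract rats and 0.85 in control rats (exact permutation p = 0.000794 and 0.00437), and Nr1d1 and Per3 had r = 0.89 and 0.82 (exact permutation p = 0.00536 and 0.0365). Cry1 and Nr1d1 had r = -0.59 in extract rats and -0.85 in control rats (exact permutation p = 0.167 and 0.00516). Without the 2 rats farthest from the median of the first gene of a pair, r was 0.84 for Nr1d1 and Nr1d2, 0.81 for Per3 and Nr1d1, -0.64 for Cry1 and Nr1d1, -0.63 for Cry1 and Nr1d2, 0.65 for Dbp and Tef and 0.74 for Per2 and Clock (permutation p from 0.0003 to 0.0388). For Per3 and Nr1d2 it was 0.60 without extract rats 7 and 4 (permutation p = 0.0998), which did not pass, although r was close to that of Cry1 and Nr1d1, Cry1 and Nr1d2, and Dbp and Tef in size.

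Because Nr1d1 fell into 2 sets of rats, its relations were also computed within the upper set of 10 rats (6 extract and 4 control), a choice made after its values were seen. There r was 0.91 with Nr1d2 (permutation p = 0.00043), 0.80 with Per3 (permutation p = 0.0279) and -0.84 with Cry1 (permutation p = 0.0103). Adjusted over these 3 the largest permutation p was 0.0279. The relations thus kept their sign and size without the 4 low rats. The set was split on Nr1d1 itself, and these 3 genes had already passed with it in the same rats. The p values are therefore descriptive and no separate support.

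**Figure D4:**
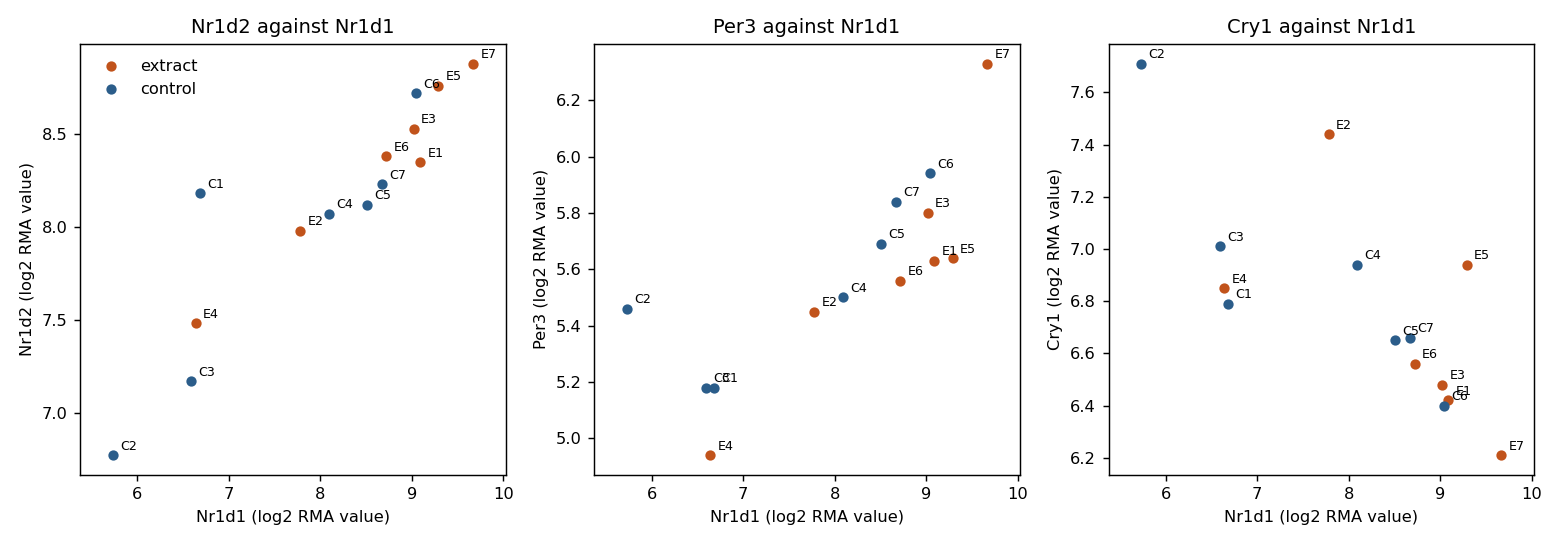
Log2 RMA values of Nr1d2, Per3 and Cry1 against Nr1d1 in each rat (E, extract; C, control, with rat numbers). Nr1d2 and Per3 climb with Nr1d1 and Cry1 declines, in both diets, and control rat 1 has more Nr1d2 (8.18) than control rat 3 (7.17), whose Nr1d1 is close (6.68 and 6.59).

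Dbp and Nr1d1, which both peak in the light phase, had r = 0.30 (adjusted permutation p = 0.626), and Bmal1, which REV-ERB proteins repress, had r = -0.08 with Nr1d1 and r = 0.73 with Clock. Of 10 relations of Bmal1 to the clock genes, that with Clock alone had an adjusted permutation p under 0.05 (0.0408; rho = 0.71, adjusted permutation p = 0.0889). Without the 2 rats farthest from the median of Bmal1 (extract rats 2 and 5) its r was 0.78 with Clock. Bmal1 and Npas2, its other partner, had r = 0.58 (permutation p = 0.0336, adjusted 0.112) and rho = 0.58 (permutation p = 0.0369), and r = 0.87 without the same rats. Control rat 1 lay below its group mean in Bmal1 (-0.27), Clock (-0.5) and Npas2 (-0.58), and so did extract rat 4 (-0.15, -0.34 and -0.08). These 2 arrays, which stood apart over all genes, were left in for every r of Bmal1.

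Each rat's clock genes were summarised by the mean of 7 genes set on the day side (Per1, Per2, Per3, Nr1d1, Nr1d2, Dbp, Tef) minus the mean of the 3 opposed genes (Cry1, Npas2, Clock), each gene taken as its difference from its mean over 14 rats. The sides were set from the known phases, with Per2 put on the day side although it peaks later than the other genes there. Between these rats several genes did not keep to these sides. Clock had r = 0.74 with Per2 and 0.64 with Per3 of the day side, and 0.06 with Cry1 of its own side. Npas2 had r = 0.29 with Nr1d1 and -0.20 with Cry1, and Per2 had r = 0.44 with Cry1 and -0.42 with Nr1d2. The contrast is a description and was not tested. It averaged 0.14 ± 0.41 in extract rats and -0.14 ± 0.40 in control rats (SD, n = 7 each), and 5 of 7 extract rats lay above the control median. In extract rats it ran from -0.37 in rat 4 over a median of 0.12 to 0.84 in rat 7, and in control rats from -0.84 in rat 2 over a median of -0.03 to 0.32 in rat 6. The span within each diet was larger than the difference between the diets, 0.28.

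The rats at the ends of the clock genes were in part not the arrays that stood apart over all genes. Control rat 2 had the largest mean absolute distance from its group mean over the 10 genes, 0.54, with the highest Per2, Cry1 and Clock and the lowest Nr1d1 and Nr1d2 of the controls, whereas over all genes its distance was 0.11. Extract rat 7 was the highest extract rat in 7 of the 10 genes, against 19.5% of all genes, and control rat 6 was the highest control rat in 5 of 10, against 13.9%. Extract rat 4 was the lowest extract rat in 4 of 10 genes and the highest in 0, against 21.5% and 23.3% of all genes. Control rat 1 was the lowest control rat in 3 of 10 (Per2, Npas2 and Clock) and the highest in 0, against 25.8% and 21.5% of all genes, and its contrast of -0.02 lay near the middle.

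The largest component shared by 14378 genes outside the lists, after centring each group, held 31.1% of the variation between rats within groups. Its lowest scores were those of control rat 1 (-0.24) and extract rat 4 (-0.15), and the others ran from -0.09 to 0.15. Clock followed it closely, with r = 0.95 over 14 rats (permutation p = 2e-05, adjusted over 10 relations 0.0002; rho = 0.91, permutation p = 3e-05), and r = 0.87 without these 2 rats. Per3 (r = 0.72, permutation p = 0.00345, adjusted 0.0173) and Per2 (r = 0.68, permutation p = 0.0122, adjusted 0.0407) followed it less closely, their ranks did not pass (rho = 0.60 and 0.61, adjusted permutation p = 0.114 for both), and without the 2 rats r was 0.58 and 0.45. For Npas2 r was 0.62 (adjusted permutation p = 0.104) and 0.15 without them. Nr1d1 (r = 0.45), Nr1d2 (0.12), Cry1 (-0.10), Dbp (0.25), Tef (-0.01) and Per1 (0.35) did not pass (adjusted permutation p from 0.252 to 0.979). The share of all genes that follow the component this closely is not given here, so following it is not shown to be particular to these clock genes. The part of RNA quality or array processing in this component was not tested.

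**Figure D5:**
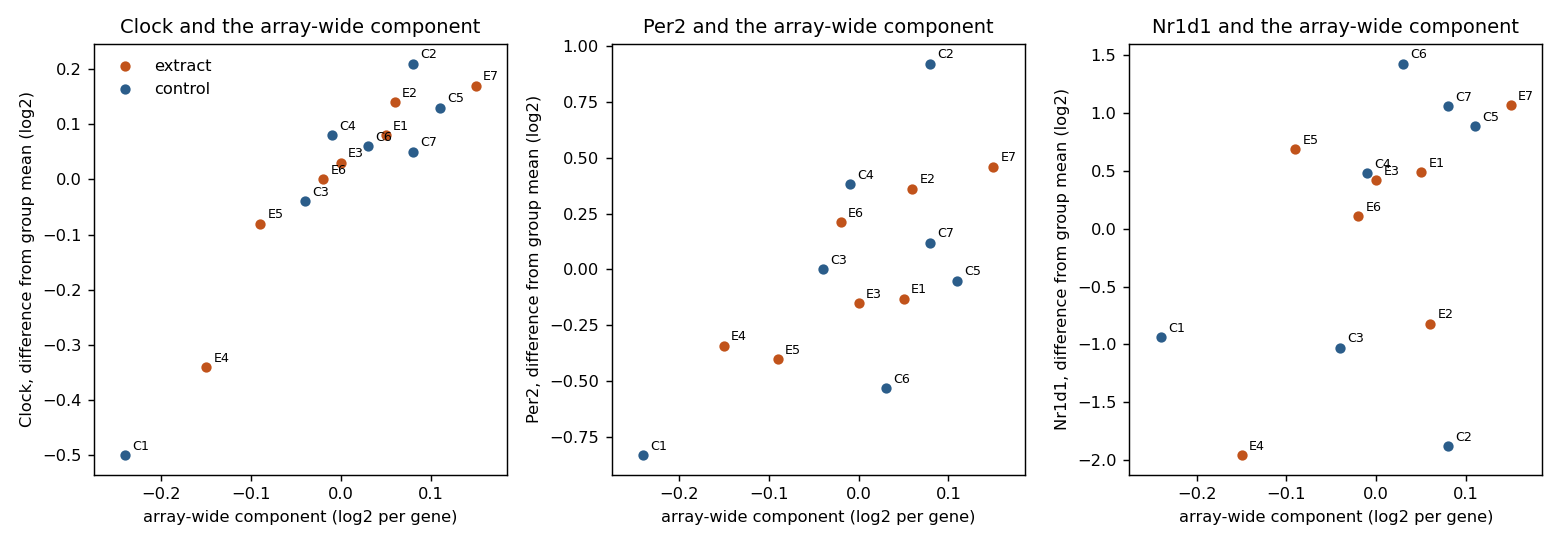
Difference of Clock, Per2 and Nr1d1 from their group mean (log2) against each rat's score on the array-wide component (E, extract; C, control). Control rat 1 and extract rat 4 lie at the low end; Clock follows the component along its whole length (r = 0.95), and Nr1d1 does so less (r = 0.45).

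Of 18 further clock genes listed, 9 were measured, and limma called 0 of the 9 between the diets (1 had an unadjusted p under 0.05). That was Bhlhe40, encoding DEC1, a repressor at E-boxes, with 10.36 ± 0.57 in extract rats and 10.81 ± 0.30 in control rats (SD, n = 7 each; log2 difference -0.45, adjusted p = 0.317). It ranged from 9.83 in rat 4 to 11.26 in rat 2 in extract rats and from 10.22 in rat 1 to 11.05 in rat 2 in control rats, and 4 of 7 extract rats lay below every control rat. Bmal1 (log2 difference -0.10), Cry2 (0.01), Nfil3 (0.09), the casein kinases Csnk1d (-0.05) and Csnk1e (-0.05), which phosphorylate PER proteins, Btrc (-0.01), Timeless (-0.12) and Bhlhe41 (-0.03, with a mean of 3.51, below the array medians) had adjusted p from 0.662 to 0.971. The within-group SD of Bmal1 was 0.16 and that of Cry2 0.19 (47.0 and 65.9 percentiles of genes), and that of Bhlhe40 was 0.46. In the remaining ones it ran from 0.11 (Bhlhe41) to 0.24 (Csnk1e, 83.3 percentile).

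Liver genes downstream of the clock were given beside the clock genes, in lists chosen with earlier results of these data known. Of 15 measured clock-controlled liver genes 2 rose and 1 fell, against 3.15% of all genes called, and 5 had an unadjusted p under 0.05, against 14.8%. The median log2 difference was 0.12. Nr0b2, the receptor SHP, rose (8.59 ± 0.27 in extract rats, 7.81 ± 0.42 in control rats, SD, n = 7 each; log2 difference 0.79, adjusted p = 0.0102), and so did Por, the electron donor of cytochromes P450 (0.55, adjusted p = 0.0371). The cell cycle inhibitor Cdkn1a fell by 0.69 on the log2 scale (adjusted p = 0.00811). None of the 10 clock genes passed beside them.

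Signals that can reset the liver clock were examined the same way, each count to be read against the 3.15% called over all genes. Of 11 glucocorticoid-responsive genes 0 rose and 1 fell, the kinase gene Sgk1. It had 8.64 ± 0.21 in extract rats and 9.14 ± 0.09 in control rats (SD, n = 7 each; log2 difference -0.50, limma adjusted p = 0.00223). All 7 extract rats lay below all controls in Sgk1, and groups free of overlap were found in 1.54% of all genes. Of 10 fasting-induced genes 1 rose, the coactivator gene Ppargc1a (log2 difference 0.75, adjusted p = 0.000624), and of 9 feeding-induced genes 1 rose, the malic enzyme gene Me1, also a target of NRF2 (1.22, adjusted p = 2.28e-06). In each of these 3 lists 3 genes had an unadjusted p under 0.05, against 14.8% of all genes, and the list medians were 0.08 for the glucocorticoid, 0.11 for the fasting and -0.03 for the feeding list. Of 8 temperature-responsive genes limma called 0 (1 had an unadjusted p under 0.05, Hspb1, with a log2 difference of -0.38 and adjusted p = 0.243), and of 10 immediate early genes 1 rose, the transcription factor gene Myc (0.94, adjusted p = 0.00393), the same gene being the 1 with an unadjusted p under 0.05. In bulk tissue, fewer cells of a type and less RNA per cell cannot be told apart.

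Of 8 macrophage markers 2 fell (Marco and Vsig4) and 0 rose, against 3.15% of all genes called, and 7 of the 8 had an unadjusted p under 0.05, against 14.8% of all genes. The median log2 difference was -0.28. The mean of that list lay between 8.07 and 8.54 in extract arrays and between 8.56 and 8.83 in control arrays, with no overlap. Limma called 0 of 3 endothelial, 0 of 5 stellate, 0 of 4 lymphocyte and 0 of 3 red cell markers (2, 1, 0 and 0 had an unadjusted p under 0.05), with medians of -0.23, -0.20, -0.02 and -0.16. It also called 0 of 10 hepatocyte, 0 of 4 cholangiocyte, 0 of 5 pancreas and 0 of 4 adipose markers (0, 1, 0 and 1 had an unadjusted p under 0.05), with medians of -0.03, 0.19, 0.11 and -0.10. Their part in the differences of Per2 and Npas2 was not tested.

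Genes whose level followed that of a clock gene from rat to rat were named by the group-centred r over 14 rats, as a description. For Dbp the highest were Stx12 (0.87), Them7 (0.84), Supt7l (0.84), Cryab (0.83) and Cimap1a (0.82), and the lowest Pnrc1 (-0.87), Slitrk4 (-0.82), Kntc1 (-0.82), Clec2d2l1 (-0.80) and Rnf125 (-0.78). For Npas2 the highest were Adam28 (0.91), Nxf1 (0.90), Nfat5 (0.90), Zfc3h1 (0.89) and Fnbp4 (0.88), and the lowest Pop4 (-0.84), Stoml2 (-0.83), Slc23a3 (-0.82), Emc7 (-0.82) and Ctbs (-0.82). Npas2 lay -0.58 from its group mean in control rat 1 and from -0.15 to 0.3 in the other rats. Every r here includes that array, which stood apart over all genes. Without it and extract rat 4, the r of Npas2 with the array-wide component fell from 0.62 to 0.15. An r of at least 0.7 was reached by 63 genes for Dbp and 352 for Npas2, and one of -0.7 or lower by 19 and 144. Nr1d1, added after its values were seen, had 91 and 59, with Or2ag13 (0.85), Klf9 (0.84), Dixdc1 (0.83), Tmprss11d (0.83) and C6h14orf28 (0.81) highest and Tspan4 (-0.81), Fitm1 (-0.81), Chrna5 (-0.79), Lcn2 (-0.79) and Nqo1 (-0.78) lowest. Or2ag13 and Tmprss11d had mean levels of 3.23 and 3.15, below the array medians, while Klf9, a transcription factor gene that responds to glucocorticoids and cycles in liver, had 8.59. Klf9 had a log2 difference of 0.48 between the diets (adjusted p = 0.0608).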

How the data were processed

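Total liver RNA of 14 rats was hybridised as sense-strand DNA to whole-transcript Affymetrix arrays, 1 per rat, according to the labels' protocols. What the authors deposited is on a log2 scale; per the submitters' processing notes the authors used RMA in Affymetrix Expression Console 1.1.2, with options and genome build not given in the sources used here. RMA compresses differences near background and precision rests on 7 arrays a group. The sample labels give the extract as 0.05% of the diet, which is printed, and the series title as 0.5%. Of 29215 probes 15310 had exactly 1 symbol in GEO's platform annotation (323 had several and 13582 were unnamed here), giving 14506 genes by their brightest probe (mean over 14 arrays).

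Groups were compared with limma 3.58.1 in R 4.3.3 (lmFit and eBayes, two-sided, no covariate, no dim-probe filter), Benjamini-Hochberg adjusted over 14506 genes. On simulated data with 200 changed genes in each of 5 runs it recovered 88.1% of changes of 0.5, and 100% of changes of 1, with 5.6% false calls among calls. The changed genes were drawn from all genes, with a median SD within groups of 0.16, and the noise was independent between genes. Recovery at the SD of the clock genes (median 0.38, Nr1d1 1.16) was not examined, so these shares do not carry over to them. Correlations and figures used Python 3.11.15 (numpy 2.4.6, matplotlib 3.10.9). The genes and the 7 lists were chosen with earlier results of these data known. The naming rule takes all 10 genes, the measured further clock genes, up to 6 passing genes of each list (or its smallest p) and the 5 genes most and least like Dbp and Npas2. Settings tried were normalization, a mean filter of 6, probes, variance model, array weights, a replicate block and leaving out rats. The labels name no batch.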

Additional observations from a re-analysis of the deposited data

Results flagged for a closer look

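Clock in control rat 1 (8.38) lay far below the other 6 control rats, with a gap to its neighbour of 0.646 of the group's range, above Dixon's 95% critical value for 7 samples. Chance gives such a gap in about 1 of 20 groups, and 20 groups were examined (10 genes in each of the diets).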

How the results depend on the processing

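Limma called 2 of the 10 genes, Per2 and Npas2, with array weights, without control rat 1, and without both control rat 1 and extract rat 4; leaving out each rat in turn gave from 0 to 2 calls. At an adjusted p of 0.1 there was 1 call, Per2, and the share of all genes called at that threshold is not given here. With the rat number as a replicate block, 0 genes passed (Per2 -0.72, limma adjusted p = 0.0537, and Npas2 -0.36, limma adjusted p = 0.216). The block lowered the SE of Cry1 from 0.19 to 0.1 and of Nr1d1 from 0.52 to 0.41. It left those of Clock, Per1 and Tef as they were and raised that of Npas2 from 0.12 to 0.13. Over all genes the deviations of same-numbered rats correlated from -0.46 to 0.282 (4 of 7 over 0.1). Whether these rats shared more than a number is not given in the labels and was not tested. Over the alternatives the difference of Per2 ran from -0.86 to -0.56 (adjusted p from 0.0132 to 0.162) and that of Npas2 from -0.45 to -0.32 (adjusted p from 0.00587 to 0.228). Nr1d1 ran from 0.67 to 1.33 and passed in 0 of 23. Per3 was not tested under the mean filter of 6.

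Differences near 0 changed sign: Clock to -0.01 after repeated quantile normalization, -0.02 with array weights, -0.02 without control rat 1 and extract rat 4, and between -0.08 and 0.06 when each rat was left out; Per3 ran from -0.04 to 0.19 and Dbp from -0.04 to 0.20 when each rat was left out. Cry1 ran from -0.30 to -0.04, Per1 from -0.18 to -0.04 and Tef from -0.14 to -0.05 over the alternatives and passed in 0 of 23 each. Of the 45 pairs, 7 were correlated in all rats, 6 without centring, 7 after median centring (added after seeing the data), 5 without control rat 1 and extract rat 4 (4 of the 7, and Per1 with Npas2 at r = 0.82, adjusted permutation p = 0.0261), but 1 in extract rats alone and 0 in control rats alone, where 7 rats are left for each test. The per-rat contrast differed between diets by 0.70 within-group SDs, and by 0.41 (without Npas2) to 0.92 (without Cry1) under its alternatives. The cause of these changes was not tested.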
